A study of Rattus norvegicus with 3 samples.

Results

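The endothelin system was described through 5 genes: the receptors Ednra and Ednrb, the ligand genes Edn1 and Edn3, and Ece1, which encodes the enzyme that activates the ligands. The 5 were taken by symbol from a table of 17337 genes, and each symbol matched 1 row. The RNA came from 3 libraries of Schwann cell precursors, primary peripheral glia taken from dorsal root ganglia of wild type rat embryos and grown without treatment in a DMEM-based modified Sato medium. All 3 form 1 untreated group, so the data give levels within these cultures and no contrast between conditions. Whether the libraries are separate cultures is not stated, so p-values reflect the spread among 3 samples that may be technical repeats.

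Endothelins are short vasoactive peptides cut from long precursors. Furin-type proteases release an inactive intermediate, big endothelin, and endothelin converting enzymes cleave it to the active peptide. Of the receptors, the A type prefers endothelin-1 and endothelin-2 over endothelin-3, whereas the B type binds all endothelins alike. In the neural crest, EDN3 acting on EDNRB is needed for enteric neurons and melanocytes, and EDN1 acting on EDNRA patterns the lower jaw. In peripheral nerve, endothelin signalling is known to slow the passage of Schwann cell precursors to Schwann cells.

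Levels are given in TPM, the count of a gene divided by its length and scaled to 1000000 over all genes of a library, so that genes of different length can be compared. Values are mean ± SD over the libraries (n = 3) unless stated otherwise. Totals per library were 14139074 to 15309526 counts. The 12 Schwann cell precursor markers, all of which passed 1 TPM, had a median of 281 ± 1.43 TPM. Genes used as markers of other cell types were measured too, and which cells their transcripts came from was not tested. The 6 fibroblast markers had a median of 821 ± 27.5 TPM, the 9 measured sensory neuron markers 123 ± 3.10, the 10 mural markers 7.66 ± 0.168, the 6 macrophage markers 3.70 ± 0.698 and the 12 endothelial markers 0.462 ± 0.0629. In such bulk RNA, more cells of a type and more RNA per cell cannot be told apart.

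The B receptor gene dominated the system. Ednrb was at 1433, 1408 and 1402 TPM in replicates 1, 2 and 3, from 21289, 19462 and 19398 counts. Its mean of 1414 ± 16.7 TPM ranked 78th of all genes, above 99.6% of them. Ednra was at 38.8, 34.4 and 36.4 TPM, or 36.5 ± 2.18 TPM, from 1316, 1087 and 1152 counts. The lowest Ednrb value lay far above the highest Ednra value. Ednrb was 37.0-fold, 40.9-fold and 38.5-fold higher than Ednra in the 3 libraries. Of the receptor transcripts summed per length, 97.4%, 97.6% and 97.5% were Ednrb, or 97.5% ± 0.125. Although the A receptor was the minor one, it stood above 70.9% of listed genes.

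Ece1, whose product converts big endothelin-1 to the active peptide, came next in order after Ednrb. It was at 128, 133 and 131 TPM, or 130.4 ± 2.55 TPM, from 2503 to 2622 counts per library. The highest and the lowest library differed by 1.04-fold. Ece1 thus stood above 90.9% of listed genes, at 10.8-fold below Ednrb and 3.57-fold above Ednra by the ratios of mean TPM.

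Ligand transcripts were lower than those of either receptor. Edn1 was at 7.20 TPM in replicate 1, 11.0 in replicate 2 and 11.7 in replicate 3, or 9.96 ± 2.42 TPM, from 74, 105 and 112 counts. Replicate 1 was the low one and the other 2 were close together. Edn3, the ligand gene paired with Ednrb in crest development, was at 0.735, 0.592 and 1.38 TPM, or 0.902 ± 0.420 TPM, from only 4, 3 and 7 counts. These counts are near the floor of 3 counts, which for Edn3 equals 0.551 to 0.592 TPM, so its level is known only roughly. Edn2, the remaining ligand gene and not 1 of the 5, had no count in any library, which allows up to 0.765 to 0.822 TPM. With Edn2 set at 3 counts in each library, Edn1 was at least 12.4-fold higher.

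**Figure D1:**
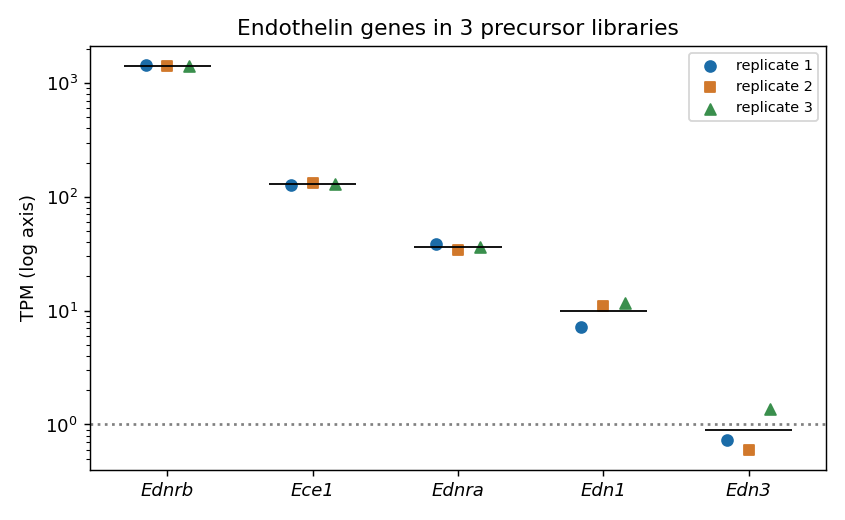
TPM of the 5 endothelin genes (log axis) in each of 3 libraries, with the mean as a line and 1 TPM dotted. The genes fall in the order Ednrb, Ece1, Ednra, Edn1, Edn3, and no gene overlaps its neighbour in any library.

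A test against a level of 1 TPM was fitted with limma to log2(TPM + 1) of every gene with a count (adding 1 makes differences of low genes look smaller). At a Benjamini-Hochberg adjusted p under 0.05, 78.4% of the 13345 genes tested were above 1 TPM, 17.8% below and 3.84% in neither direction. Of the 5 endothelin genes, 4 were above 1 TPM, a share close to that background. The limma adjusted p was 3.85e-14 for Ednrb, 1.50e-13 for Ece1, 2.43e-11 for Ednra and 6.54e-07 for Edn1. Edn3 passed in neither direction, with an adjusted p of 0.453 by limma, and it lay under 1 TPM in 2 of 3 libraries. Without replicate 3 its level was 0.664 TPM and it was called below 1 TPM (limma adjusted p = 0.0257).

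Each gene of the system was next set against every other gene within the same library, as a log2 ratio of TPM with 0.1 added to each, by limma adjusted over all 13344 other genes tested. Only 68 genes passed as higher than Ednrb, or 0.51% of those tested, and 99.4% passed as lower. Against Ece1, 11.2% of genes were higher and 87.5% lower. Against Ednra, 35.8% were higher and 59.8% lower. The ligands stood lower in this order, with 57.1% of genes higher and 32.2% lower than Edn1, and 76.9% higher and 14.8% lower than Edn3. The 10 ratios between the 5 genes each had the same sign in 3 of 3 libraries. The log2 ratio of Ednrb to Ednra was 5.27 ± 0.07, that of Ednrb to Ece1 3.44 ± 0.04 and that of Ece1 to Ednra 1.83 ± 0.11. Ratios to the ligands were more uneven, with 7.17 ± 0.39 for Ednrb to Edn1, 1.89 ± 0.45 for Ednra to Edn1, 5.27 ± 0.56 for Ednra to Edn3 and 3.38 ± 0.55 for Edn1 to Edn3. All 10 passed, with a largest limma adjusted p of 7.1e-10. That p is too small, because the spread of the gene taken as reference enters each difference. With the limma variances of both genes kept apart and added, a choice made after seeing the data, the largest adjusted p was 4.53e-06. An exact sign-flip permutation test over the libraries, two-sided, gave p = 0.25 for each ratio, the smallest that 3 libraries allow.

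**Figure D2:**
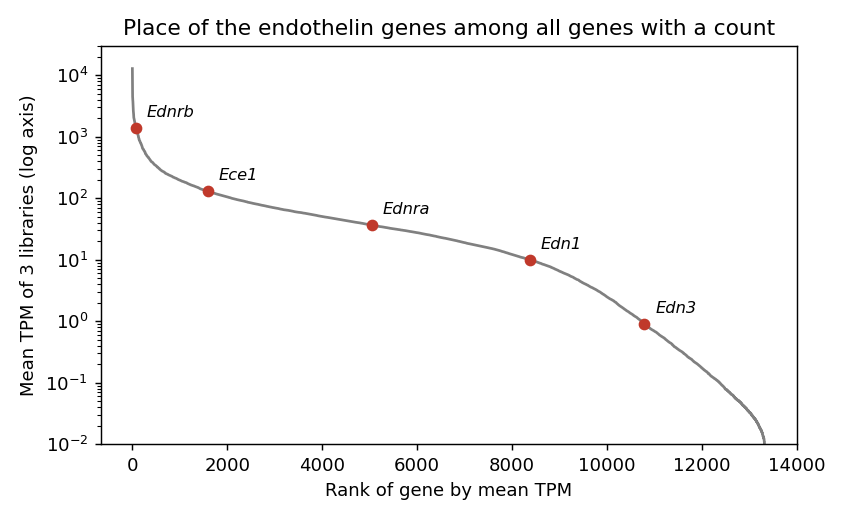
Mean TPM (log axis) of genes with a count against their rank, with the endothelin genes in red. Ednrb sits on the steep left end at rank 78, Ece1 at 1586, Ednra at 5041, Edn1 at 8378 and Edn3 at 10792.

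By level alone, the genes nearest to Ednrb in mean log2(TPM + 0.1) over the 3 libraries were Pfn1, encoding the actin-binding protein profilin, at 1415 ± 64.4 TPM and Ckb, brain-type creatine kinase, at 1407 ± 43.0. Nearest to Ece1 were Galnt1 at 130.5 ± 4.05 and Hdgfrp2 at 130.3 ± 1.92, and nearest to Ednra were Mrpl19 at 36.5 ± 0.825 and Cndp2 at 36.6 ± 3.29. Nearest to Edn1 were Zfp286a at 9.77 ± 0.786 and Rnf219 at 9.75 ± 0.408.

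The 5 genes differed in how closely the libraries repeated. The SD over the mean was 1.18% for Ednrb, 1.96% for Ece1, 5.98% for Ednra, 24.3% for Edn1 and 46.5% for Edn3. For Ece1 and Edn3 this was close to what counting alone gives, at 1.98% and 46.3%. Among the 200 genes nearest in level to each, 25.5% had a lower value than Ece1 and 84.5% a lower value than Edn3. For Ednrb it was above the 0.706% from counting, and higher than in 21.5% of the 177 genes nearest in level, whose median was 1.92%. For Edn1 it was above the 10.2% from counting, and higher than in 98.0% of the 200 genes nearest to it in level, whose median was 7.43%. For Ednra it was above the 2.90% from counting and higher than in 73.5% of its 200 neighbours, whose median was 4.14%. All neighbours were matched on TPM and not on counts. For Edn1, counting alone, at 10.2%, was already above the median of its neighbours. The exact 95% Poisson interval of the Edn1 count, which covers counting error only, was 58.1 to 92.9 in replicate 1, 85.9 to 127 in replicate 2 and 92.2 to 135 in replicate 3. Highest over lowest TPM was 1.625 for Edn1, and 1.07 without replicate 1. Endothelial cells are the classic source of endothelin-1. The summed level of the 12 endothelial markers was 42.3, 43.5 and 40.4 TPM in replicates 1, 2 and 3, and the part of endothelial cells in the Edn1 values was not tested. By limma, 5 of those markers were above 1 TPM and 6 were below, where 60.3% of all listed genes were above. Those above were Cdh5, a junction cadherin, at 16.6 ± 1.03 TPM, Emcn at 13.7 ± 0.836, Tek at 4.69 ± 0.211, Egfl7 at 3.26 ± 0.555 and Erg at 2.42 ± 0.904. Of the defining markers, singled out after their values were seen, Kdr at 0.178 ± 0.105, Pecam1 at 0.0693 ± 0.0695 and Vwf at 0.134 ± 0.0191 were near 0, and Cldn5 had no count.

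**Figure D3:**
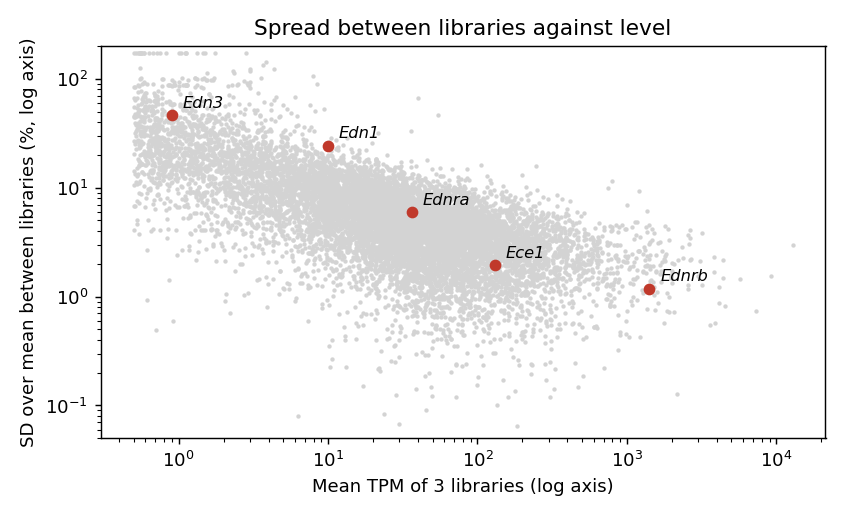
SD over mean between 3 libraries (%) against mean TPM, both on log axes, for genes with a mean of at least 0.5 TPM in grey and the endothelin genes in red. Edn1 at 24.3% lies at the upper edge of genes of its level, whereas Ednrb at 1.18% and Ece1 at 1.96% lie within the cloud.

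EDNRA is typical of smooth muscle, pericytes and fibroblasts. All 10 mural markers were above 1 TPM, where 60.3% of listed genes were, led by the contractile genes Tagln at 466 ± 13.0 and Acta2 at 317 ± 10.9 TPM and the receptor gene Pdgfrb at 173 ± 3.23, while Myh11, a defining gene of mature smooth muscle singled out after its value was seen, was at 1.69 ± 0.202. The remaining mural markers, named after their values were seen, were far lower than Pdgfrb. Mean TPM was 7.90 for Abcc9, 7.89 for Des, 7.49 for Cspg4, 7.44 for Kcnj8, 4.47 for Notch3 and 3.26 for Rgs5. The summed level of the 10 mural markers was 1028, 986 and 974 TPM in replicates 1, 2 and 3. Most of this sum came from Tagln, Acta2 and Pdgfrb. The summed level of the 6 fibroblast markers was 8321, 8283 and 8483 TPM. All 6 fibroblast markers were above 1 TPM as well, and Col1a1 was at 3842 ± 64.6. The part of other cells in the Ednra level was not tested.

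In the rn6 genome, Ednrb (NCBI gene 50672) is at chr15:88006961-88036354 on the minus strand and Ednra (24326) at chr19:33928356-33991703 on the plus strand, each with 8 listed exons. Edn1 (24323) is at chr17:22137324-22143324 on the minus strand and Edn3 (366270) at chr3:172856730-172879276 on the plus strand, with 5 exons each. Ece1 (94204), at chr5:156215469-156316993 on the plus strand, has 19 exons. No exon of another gene in the table lay within the span of any of the 5, on either strand. Listed exon lengths were 2010 bases for Ednrb, 4595 for Ednra, 2779 for Ece1, 1390 for Edn1 and 737 for Edn3, and ratios between genes rest on these lengths.

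The promoters of the receptor pair, whose mean levels differ 38.7-fold, and of Edn1, the member with the most uneven counts beyond counting error, are shown as the 250 bases before a RefSeq start site (GRCr8, read 5′ to 3′ on the strand of the gene). Capitals mark matches to short motifs, searched on either strand in a fixed spelling. For general promoter elements these were TATAAA (the site bound by the TATA-binding protein), the box spelled CCAAT, and GGGCGG (the GC-rich box of SP1). For factors of this lineage, the cores of SOX proteins were searched as ACAAAG and, in a second form, as AACAAT. Sites of GATA factors were searched as AGATAA, and those of basic helix-loop-helix factors by the E-box spelled CACGTG. For AP-1, the dimer of FOS and JUN proteins, the letters were TGANTCA and, as a variant, TGACTAA. The AP-1 variant was searched after the Edn1 sequence had been seen, and no match overlapped another.
Ednrb, chr15:87086766-87087015, minus strand: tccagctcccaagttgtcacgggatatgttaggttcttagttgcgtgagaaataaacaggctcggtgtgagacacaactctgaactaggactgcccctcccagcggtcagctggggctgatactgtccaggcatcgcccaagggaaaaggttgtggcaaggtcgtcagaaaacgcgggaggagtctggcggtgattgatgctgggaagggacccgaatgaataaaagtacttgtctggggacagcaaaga
Ednra, chr19:47137674-47137923, plus strand: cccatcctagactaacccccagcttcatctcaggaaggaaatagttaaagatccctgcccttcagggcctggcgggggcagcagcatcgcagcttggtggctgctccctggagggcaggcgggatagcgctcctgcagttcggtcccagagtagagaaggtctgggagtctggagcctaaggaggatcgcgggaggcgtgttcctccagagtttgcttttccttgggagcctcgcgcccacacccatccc
Edn1, chr17:22666688-22666937, minus strand: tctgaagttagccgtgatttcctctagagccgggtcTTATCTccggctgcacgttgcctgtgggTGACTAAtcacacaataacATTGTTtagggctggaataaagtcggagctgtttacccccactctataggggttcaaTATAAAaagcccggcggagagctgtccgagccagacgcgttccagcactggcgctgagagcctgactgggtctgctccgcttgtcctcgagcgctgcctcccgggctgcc
Neither receptor window held any of these letters, which says nothing about the factors, and both had 10 CpG. The GC content was 53.2% for Ednrb and 61.2% for Ednra, against a median of 51.2% over 33465 RefSeq promoters of the same length. The Edn1 window held TATAAA at -110 from the start site, a motif found in 12.9% of promoters. It also held TGACTAA at -186 (1.99% of promoters), AACAAT on the opposite strand at -167 (10.3%) and AGATAA on the opposite strand at -214 (10.3%). These positions are the leftmost base of each match, which is a match of letters and not a measured site. They count from the first RefSeq start site listed for the gene, and other start sites were not examined. The Ece1 window, at 69.2% GC with 25 CpG, held CCAAT and GGGCGG, 2 matches each, on the opposite strand, motifs found in 34.0% and 30.5% of promoters.

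Ednrb was the highest of the peptide receptors listed here, a chosen set and not a survey of all such receptors. Of 43 measured receptor genes of other peptide ligands, 33 had a count. All 33 passed as lower than Ednrb by limma, close to the share of 99.4% over all genes. The next highest was F2r, the thrombin receptor, at 138.6 ± 2.24 TPM, with a log2 ratio to Ednrb of -3.35. It was followed by Agtr1a, an angiotensin II receptor, at 64.2 ± 1.76, Ackr3, an atypical chemokine receptor, at 40.5 ± 1.05 and Cxcr4 at 27.0 ± 1.45. Against Ednra, 3 of the 33 passed as higher (F2r, Agtr1a and Ackr3) and 30 as lower, where 35.8% of all genes were higher. The ratio of Ackr3 to Ednra was small, at 0.15 log2 units with a limma adjusted p of 0.02. Of the 43, 12 were above 1 TPM (27.9%, against 60.3% of all listed genes), 21 below and 10 without a count, and the list's median was 0.177 ± 0.0461 TPM, against 8.38 ± 0.159 over all listed genes. The 10 with no count were Agtr1b, Oxtr, Cckar, Avpr1b, Avpr2, Galr1, Galr3, Ntsr1, Sstr5 and Ghsr.

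The orphan receptors closest in sequence to the endothelin receptors, Gpr37 and Gpr37l1, are known from glia. Gpr37l1 was at 38.6, 40.2 and 40.7 TPM, or 39.8 ± 1.08, near the level of Ednra. Its log2 ratio to Ednra was 0.12 with a limma adjusted p of 0.0583, so the data did not separate these levels. Gpr37 was lower, at 3.78, 4.34 and 3.21 TPM, and both genes passed as lower than Ednrb.

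**Figure D4:**
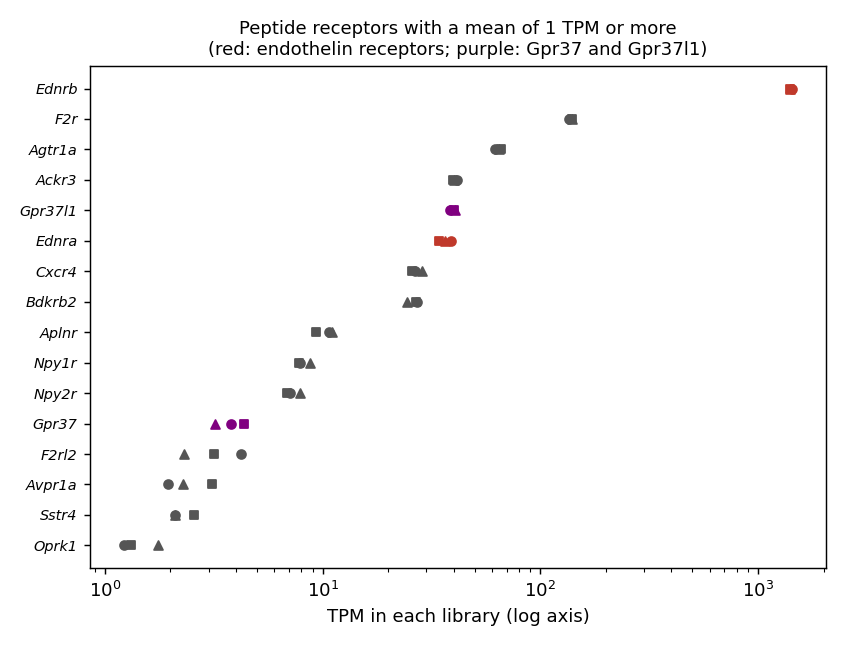
TPM (log axis) of the endothelin receptors in red, Gpr37 and Gpr37l1 in purple and other listed peptide receptors with a mean of at least 1 TPM in grey, with a circle, square and triangle for replicates 1, 2 and 3. Ednrb stands at 1402 to 1433 TPM, to the right of F2r at 136 to 140.

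A further list held genes for endothelin ligands, for enzymes that make or degrade them, and for relatives of such enzymes. Of its 10 genes, 4 were above 1 TPM by limma, 3 below and 3 without a count, where 60.3% of listed genes were above. The precursor protease Furin was at 223 ± 2.83 TPM and the related Pcsk7 at 26.3 ± 1.17. Mme, encoding neprilysin, a peptidase that degrades endothelins, was at 9.57, 7.43 and 9.14 TPM. Ece2, a converting enzyme with an acidic optimum, was at 4.09, 4.93 and 5.31 TPM and so far below Ece1. Ecel1 at 0.586 ± 0.0612, Phex at 0.167 ± 0.123 and Kel at 0.123 ± 0.102, whose protein can cut big endothelin-3, were below 1 TPM. Mmel1 and Cma1 (mast cell chymase) had no count, like Edn2.

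Most genes for signalling partners of the receptors were above 1 TPM, as were 60.3% of all listed genes and 78.4% of all genes tested. By limma, 10 of the 12 G protein alpha subunit genes were above 1 TPM and 2 were below, and the median was 78.3 ± 0.827 TPM. The inhibitory subunit Gnai2 led at 747 ± 7.81, followed by the stimulatory Gnas at 329 ± 4.71, Gna12 at 185 ± 4.71 and Gnai3 at 168 ± 4.86. Among subunits that couple endothelin receptors to phospholipase C, Gnaq and Gna11 were at 121 ± 5.38 and 94.7 ± 1.85 TPM. Both were singled out after their values were seen. The 2 subunit genes below 1 TPM were Gna14 at 0.170 ± 0.153 and Gna15 at 0.421 ± 0.141. In the list of phospholipase C, calcium and protein kinase C genes 12 of 14 were above, 1 below and 1 in neither direction, with a median of 8.21 ± 0.512 TPM. Its highest genes were the inositol trisphosphate receptor gene Itpr3 at 196 ± 2.52, the phospholipase gene Plcb3 at 55.9 ± 1.77, Prkcd at 50.1 ± 2.81 and Prkca at 25.6 ± 0.942. Among genes that shut off such receptors, 11 of 12 were above 1 TPM and 1 was below, and the median was 24.3 ± 1.35 TPM. Arrb1, encoding an arrestin, was at 96.5 ± 9.39 and the receptor kinase genes Grk6 and Adrbk1 (now Grk2) at 72.3 ± 3.42 and 51.7 ± 1.39, with Rgs16 at 45.7 ± 5.15.

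**Figure D5:**
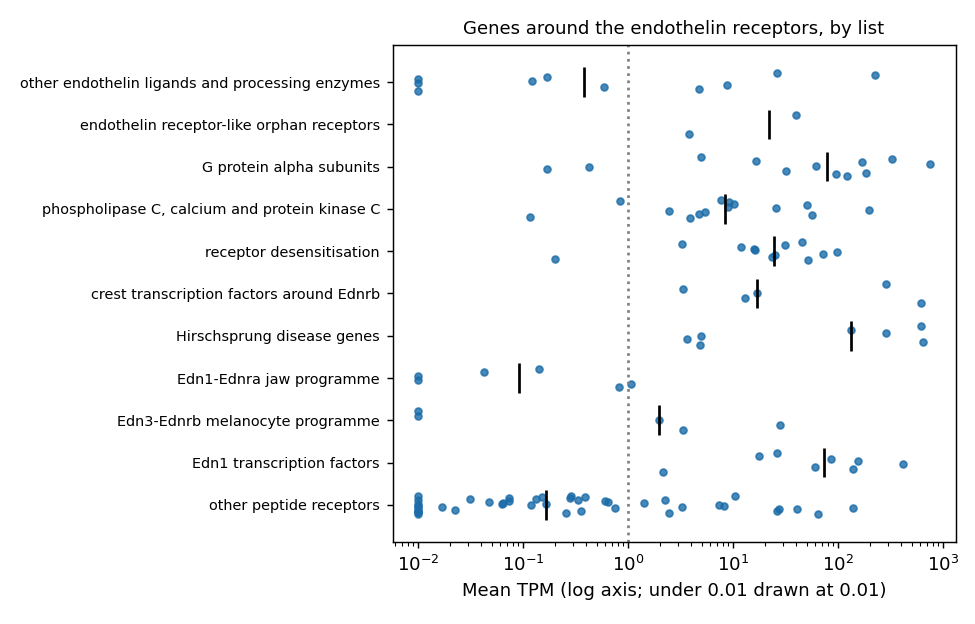
Mean TPM (log axis) of each measured gene in 11 lists around the endothelin receptors, with list medians as black bars and 1 TPM dotted. The list median taken in each library and averaged was 78.3 TPM for G protein alpha subunits, 0.177 for other peptide receptors and 0.0917 for the jaw programme.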

How the data were processed

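The authors deposited 1 table with raw counts per gene, gene lengths, counts over length (a signal per gene, deposited and not used further) and TPM for each library, made with a stranded poly(A) kit per the labels' protocols. The submitters' processing notes name STAR 2.5.2b, Subread and build rn6. Not given in the sources used here are the annotation, the strand setting and how reads matching several places were treated. Deposited TPM equalled values recomputed from counts and lengths to within 0.0005. The 2 rows without a gene name and 6 columns of totals were left out.

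Genes with a count in at least 1 library were tested with limma 3.58.1 (R 4.3.3), in two-sided moderated tests with a variance trend (threshold 0.05 after Benjamini-Hochberg adjustment), and the scripts were tested on simulated data. edgeR 4.0.16 gave TMM library sizes for 1 alternative. Of 186 symbols in the lists 178 were matched, 2 of them (Grk2 and Grk3) by synonym, and 8 were not used here. Members and lists were chosen with earlier results of these data known. Named are the 5 members, up to the 4 highest genes of each list, genes without a count, close relatives of the system, and the 2 genes nearest in level to each member of at least 1 TPM. A few defining markers, the remaining mural markers, Erg, Phex, Gnaq, Gna11, Gna14, Gna15 and Ret were also named after their values were seen. Alternatives were other pseudocounts, filters, detection levels, length and scaling, and leaving out each library. Promoter windows came from RefSeq (GRCr8), where 4 of the 5 members matched.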

Additional observations from a re-analysis of the deposited data

How the results depend on the processing

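The calls of Ednrb, Ece1, Ednra and Edn1 against 1 TPM, the signs and calls of the 10 ratios and the counts of genes above and below each member (within 1.5 times) kept under every alternative run. Edn3, with 3 to 7 counts, did not. Its level ranged from 0.664 to 1.06 TPM as each library was left out. Against 0.5 TPM it was called above (limma adjusted p = 0.0326, level 0.902 TPM), against 2 TPM below (limma adjusted p = 0.000891, the same 0.902). On the scale of RPKM with TMM library sizes, where all 5 members are lower than in TPM, Ednrb was at 686, Ece1 at 63.3, Ednra at 17.7 and Edn1 at 4.84. Edn3 was at 0.438 there and was called below 1 RPKM, a stricter cut-off than 1 TPM. Over the other alternatives its limma adjusted p was 0.413 to 0.908, apart from the 0.0257 without replicate 3. With 200 bases taken off each length, which raises short genes, the Ednrb share of receptor transcripts was 97.6%. Highest over lowest TPM of Edn1 ranged from 1.07 to 1.625 as each library was left out. The number of genes below 1 TPM was 2374, but 6235 when genes without counts were tested too and 1372 when genes averaging under 0.1 TPM were dropped, since more or fewer near-silent genes were tested. Against 0.5 TPM, 2 jaw programme genes were above in place of 0. No paired analysis was possible because all libraries form 1 group.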

Other observations

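Genes of the developmental programmes known to act with endothelins were present to different degrees. Hirschsprung disease is the loss of enteric neurons that EDNRB variants also cause. All 7 measured genes whose mutation is linked to it were above 1 TPM by limma, with a median of 132 ± 4.44 TPM. Of listed genes 60.3% were above, and of tested genes 78.4%. Gfra1, the GDNF co-receptor gene, was at 642 ± 12.8 TPM, Sox10 at 612 ± 26.0, Zeb2 at 283 ± 8.58 and L1cam at 132 ± 4.44, whereas the signalling receptor gene Ret was at 4.82 ± 0.218 and was named after its value was seen. All 5 measured crest transcription factors around Ednrb were above 1 TPM, against the same shares, with Tfap2a at 16.7 ± 0.633 and Pax3 at 12.9 ± 0.366 beside Sox10 and Zeb2.

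Of the jaw programme downstream of EDN1 and EDNRA, none of the 6 measured genes was above 1 TPM by limma (also at an unadjusted p under 0.05), where 60.3% of listed genes were, 2 were below and 2 in neither direction. Dlx5 was at 1.06 ± 0.351 and Dlx3 at 0.823 ± 0.157 TPM, Barx1 at 0.141 ± 0.122 and Gsc at 0.042 ± 0.0727, and Hand1 and Hand2 had no count. Of the melanocyte programme downstream of EDN3 and EDNRB, 3 of 5 measured genes were above 1 TPM, a share at that background, with the receptor gene Kit at 27.8 ± 2.39, Mitf at 3.35 ± 0.595 and Tyrp1 at 1.96 ± 0.357, while Tyr and Mlana had no count. All 8 genes for factors that act on Edn1 transcription were above 1 TPM, against the same 60.3% of listed genes and 78.4% of tested genes. Jun was at 414 ± 31.0, Fos at 155 ± 12.3, Hif1a at 138 ± 2.94 and Smad3 at 85.7 ± 2.49 TPM.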
